A study of Drosophila ananassae with 54 samples.

Results

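The gene set described here holds 40 genes of Drosophila ananassae whose transcripts were lower in the hindgut and higher in the Malpighian tubules of cold-acclimated flies, in each of 3 fly lines. It was cut out of 14365 counted genes. A gene had to reach a mean of at least 5 CPM (counts scaled to a common library total, without which libraries of unequal depth cannot be compared) in the 9 cold and in the 9 control libraries of each organ, which 5879 genes did. For each line and organ the log2 ratio of mean CPM (plus 0.5) in the cold to that in the controls was taken. The score of a gene was the smaller of its lowest tubule ratio over the lines and of the size of its weakest hindgut fall over the lines, and the 40 highest scores made the set. A score above 0, meaning a fall in every hindgut and a rise in every tubule comparison, was found for 212 genes. The cold and control values of both organs therefore chose the members, so the changes in those organs are described below with no test. The body libraries took no part in the choice and are tested.

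The libraries came from adult males. FastBKK is a cold-tolerant pool of 4 isofemale lines from Bangkok, SlowBKK a cold-sensitive pool of 4 isofemale lines from Bangkok, and KATH a cold-tolerant pool of 3 isofemale lines from Kathmandu. Treatment began on the day after the adults emerged. Cold flies spent 4 days at 10 °C and then recovered for 90 min, and control flies spent 4 days at the rearing temperature of 22 °C. Each hindgut or tubule library pooled 60 flies and each body library 10 flies, with 3 libraries for each line, treatment and tissue (54 in all). The 10 °C groups differ from the controls by both the cold and the recovery, which cannot be told apart. Each line is represented by 1 pool of isofemale lines, so a line difference concerns these pools, and where nothing says that libraries came from separate cultures the p-values measure the spread between libraries.

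In insects the Malpighian tubules make the primary urine. Their epithelium pumps potassium, sodium and protons into the lumen, and chloride and water follow. The hindgut, with the rectum at its end, takes ions, water and small solutes back into the haemolymph. In the cold, chill-susceptible insects lose ion and water balance as secretion and reabsorption fall out of step, and both organs are known to change with cold acclimation in Drosophila melanogaster. None of the 14365 symbols or FlyBase identifiers of the deposited table occurred in the reference gene table used here (0 matches), so the members are named by symbol only and no product or role is given for them.

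Libraries held 30.7 to 48.8 M counts (median 34.3 M). No pair of replicates agreed within sampling noise (lowest chi-square per degree of freedom 11.0 over 54 pairs). Carry-over between tissues was gauged by genes that averaged at least 50 CPM in the source and had a median under 1 CPM in the receiving organ. FastBKK control hindgut replicate 3 carried 795 body-restricted genes at a median of 5.31% of their body level, against at most 0.399% in the other hindgut libraries. KATH cold tubule replicate 4 carried 283 hindgut-restricted genes at 1.40% of their hindgut level and FastBKK cold tubule replicate 1 at 0.775%, while the tubule controls lay between 0.0450% and 0.333%. The 60 tubule-restricted genes stood at 0.258% or less of their tubule level in every hindgut library. The restricted genes were found from the labelled libraries, and no gene here carries a product name, so the tissue labels were not checked against defining markers. In tissue libraries, fewer cells of a type and less RNA per cell cannot be told apart.

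Over the 40 members the median log2 ratio in the hindgut was -0.73 in FastBKK, -0.90 in SlowBKK and -0.74 in KATH, which is 1.66-, 1.86- and 1.67-fold lower in the cold. For the tubule these medians were 0.77, 0.73 and 0.81, or 1.71-, 1.66- and 1.76-fold higher. The strongest hindgut falls reached -2.52 in FastBKK (GF15273), -2.88 in SlowBKK (GF19797) and -2.21 in KATH (GF13887), and the strongest tubule rises 2.89 (GF10804), 2.60 (GF19797) and 3.39 (GF19797). More than 2-fold changes were seen for 12, 16 and 12 members in the hindgut of these lines and for 15, 15 and 14 in the tubule. Cold and control libraries did not overlap in the hindgut for 34, 39 and 38 of the members (of all genes that passed the level minimum, 12.9%, 17.1% and 15.2% fell without overlap). In the tubule the corresponding numbers were 34, 38 and 32 (background 37.5%, 54.5% and 46.6%). No line overlapped for 33 members in the hindgut and 27 in the tubule (background 8.59% and 31.7%). The choice of the members fixes these counts.

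**Figure D1:**
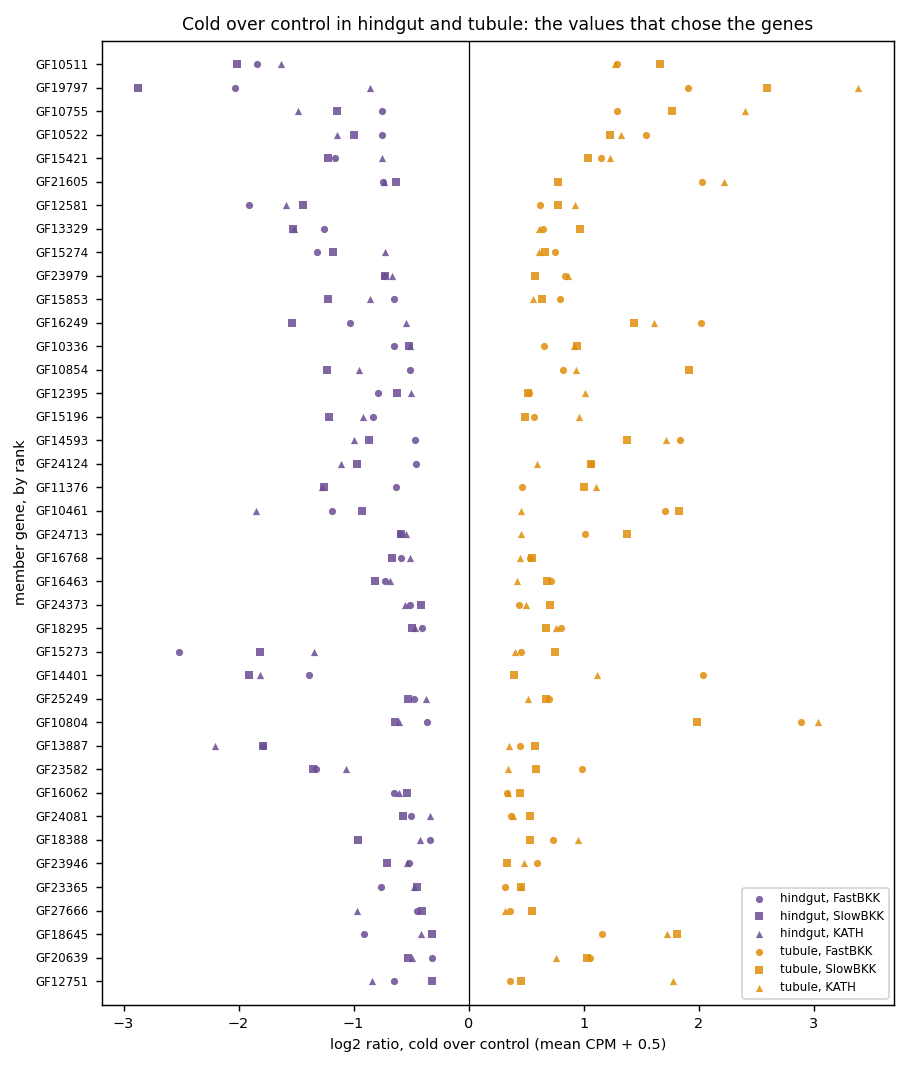
Log2 ratio of cold over control CPM for each of the 40 members (rows, in order of score) in the hindgut and in the tubule, with 1 point per line. Every hindgut point lies left of 0 and every tubule point right of it, as the choice requires, and the spread between lines is widest for GF19797 among the first 10 members.

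The ratios depend on how libraries are scaled. With CPM taken from column sums, the median of the 5879 genes was itself higher in the cold, by 0.28, 0.31 and 0.30 log2 units in the hindgut of FastBKK, SlowBKK and KATH and by 0.15, 0.27 and 0.20 in the tubule. Trimmed-mean (TMM) scaling moved all ratios down by 0.27, 0.32 and 0.29 in the hindgut and by 0.21, 0.31 and 0.19 in the tubule. On the TMM scale the median member stood at -0.999, -1.21 and -1.03 in the hindgut and at 0.57, 0.43 and 0.63 in the tubule. All 40 members stayed lower in every hindgut and higher in every tubule comparison, both on the TMM scale and relative to the median gene. Only 18 of the 40 would have been chosen on the TMM scale. GF10511, GF19797, GF10755, GF10522, GF15421 and GF21605, the 6 with the highest scores, were among those 18.

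GF10511 (FBgn0087552, scaffold_13337) had the highest score, 1.27. Its hindgut controls stood at 2451, 2165 and 2391 CPM in FastBKK, 2696, 2459.7 and 2588 in SlowBKK and 2078, 3505 and 3581 in KATH, with replicates in numerical order here and below. After the cold they read 572, 741 and 637 CPM in FastBKK, 582, 623 and 709 in SlowBKK and 917, 954 and 1084 in KATH. Every cold hindgut library lay below every control, and KATH kept the highest level after the cold. In the tubule the gene started from a far lower level, 47.3, 32.98 and 41.2 CPM in FastBKK, 30.2, 27.4 and 34.1 in SlowBKK and 46.9, 41.5 and 47.3 in KATH. The cold tubules held 105, 94.3 and 99.1 CPM in FastBKK, 91.5, 107 and 94.7 in SlowBKK and 102, 95.7 and 133 in KATH. All 9 cold tubules exceeded all 9 controls. The highest of them, KATH cold replicate 4, was the library with the most hindgut carry-over, which at 1.40% of the hindgut level of this gene amounts to 13.8 of its 133 CPM. For FastBKK, SlowBKK and KATH the hindgut log2 ratios were -1.84, -2.02 and -1.63, and those of the tubule 1.29, 1.66 and 1.27.

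GF19797 (FBgn0096804, scaffold_13266) ranked second. Control hindguts held 1088, 1338 and 1219 CPM in FastBKK, 1482, 1442 and 1233 in SlowBKK and 726, 1046 and 971 in KATH. Cold hindguts held 279, 337 and 275 CPM in FastBKK, 185, 148 and 231 in SlowBKK and 502, 495 and 515 in KATH. The groups did not overlap in any line, and the fall was smallest in KATH (log2 ratio -0.86) and largest in SlowBKK (-2.88). Tubule controls were at 37.6, 15.6 and 12.7 CPM in FastBKK, 34.1, 23.97 and 21.99 in SlowBKK and 13.1, 23.9 and 7.88 in KATH. In the cold tubule the values were 125, 55.5 and 69.7 CPM in FastBKK, 164, 126 and 202 in SlowBKK and 186, 187 and 111 in KATH. The rise was smallest in FastBKK (log2 ratio 1.90) and largest in KATH (3.39), so the order of the lines in the tubule was not that in the hindgut.

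GF10755 (FBgn0087795, scaffold_13337) changed places between the organs. Its control hindguts read 86.6, 66.9 and 82.7 CPM in FastBKK, 110.3, 87.03 and 79.6 in SlowBKK and 61.6, 64.2 and 46.1 in KATH, and its cold hindguts 44.4, 47.99 and 46.9 CPM in FastBKK, 34.3, 52.3 and 37.8 in SlowBKK and 17.4, 18.8 and 24.2 in KATH. Tubule levels were 49.6, 88.2 and 70.00 CPM in FastBKK, 54.03, 42.3 and 31.1 in SlowBKK and 35.2, 22.5 and 21.5 in KATH in the controls. They were 177, 170.1 and 165 CPM in FastBKK, 156, 149 and 132 in SlowBKK and 162, 135 and 129 in KATH in the cold. Cold and control did not overlap in either organ of any line, the KATH libraries were the lowest in the hindgut at both temperatures, and every cold tubule library was above every hindgut library of the set.

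**Figure D2:**
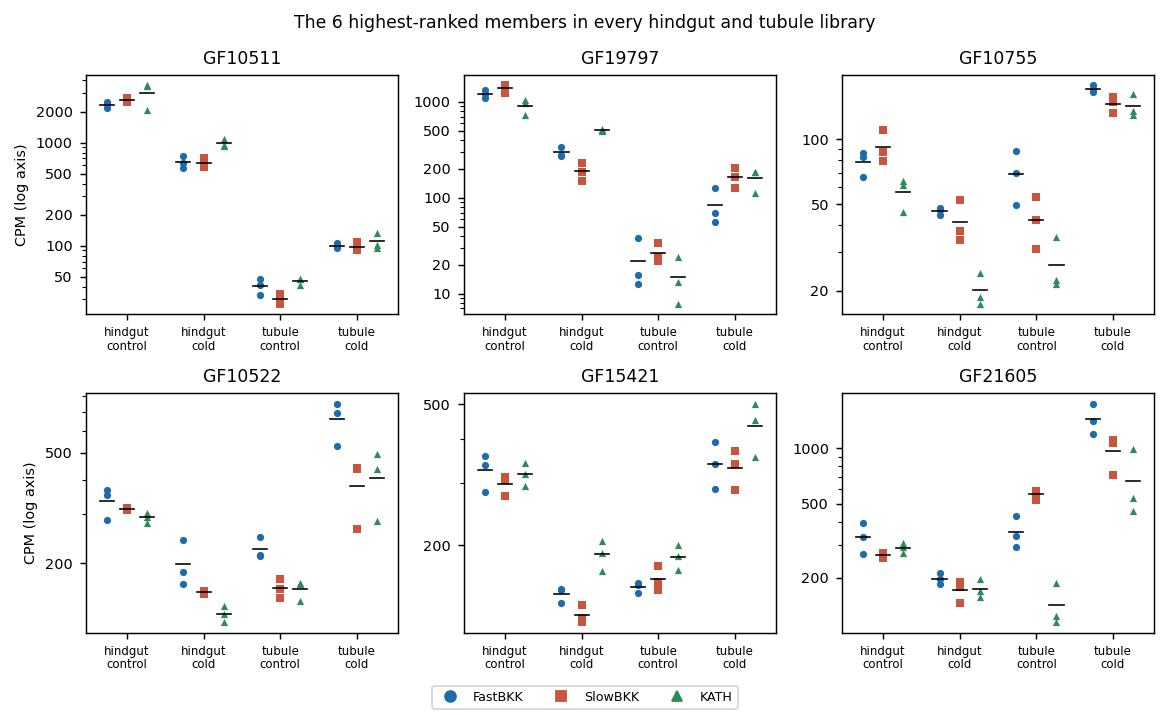
CPM (log axis) of the 6 highest-ranked members in each of the 36 hindgut and tubule libraries, with 1 point per library, colour and shape by line and a bar at the mean of 3. GF10511 and GF19797 stay higher in the hindgut after the cold, whereas GF10755, GF10522, GF15421 and GF21605 end higher in the tubule.

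GF10522 (FBgn0087563, scaffold_13337) and GF15421 (FBgn0092446, scaffold_12916) had similar ratios. GF10522 stood at 368, 287 and 354 CPM in FastBKK, 315, 316 and 312 in SlowBKK and 304, 295 and 280.1 in KATH in control hindguts. It stood at 242, 168 and 186 CPM in FastBKK, 158, 155 and 159 in SlowBKK and 123, 132 and 141 in KATH after the cold. Among the cold hindguts those of FastBKK were the highest, and cold and control did not overlap in any line. In the tubule it went from 215, 249.9 and 212 CPM in FastBKK, 161, 151 and 176 in SlowBKK and 147, 169 and 169.6 in KATH. The cold values were 697, 749.6 and 531 CPM in FastBKK, 266, 436 and 441 in SlowBKK and 438, 494 and 283 in KATH. FastBKK was again the highest, and SlowBKK cold replicate 2 and KATH cold replicate 4 were the lowest of their groups. GF15421 held 338, 358 and 283 CPM in FastBKK, 312, 306 and 275 in SlowBKK and 318, 295 and 341 in KATH in control hindguts. Its cold hindguts held 150.5, 149.5 and 138 CPM in FastBKK, 122, 136 and 125 in SlowBKK and 190.1, 169 and 206 in KATH. The fall was smallest in KATH, where all cold values stayed above those of the other lines. In the tubule GF15421 had 157, 154 and 147 CPM in FastBKK, 150.0, 158 and 175 in SlowBKK and 200.1, 171 and 186 in KATH in the controls. The cold tubule libraries had 289, 391 and 340.0 CPM in FastBKK, 338, 287 and 368 in SlowBKK and 501, 451 and 355 in KATH, without overlap in any line.

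GF21605 (FBgn0098605, scaffold_12943), the shortest member at 346 bases, had the largest tubule difference in CPM in each line. Its hindgut levels were 396, 267 and 329 CPM in FastBKK, 271, 271 and 256 in SlowBKK and 306, 294 and 271 in KATH in the controls. The cold hindguts held 213, 196 and 184 CPM in FastBKK, 147, 189.6 and 178 in SlowBKK and 169.7, 195 and 157 in KATH. In that organ the lines differed little. Tubule controls spread far more between lines, with 294, 429 and 336 CPM in FastBKK, 583, 523 and 583 in SlowBKK and 123, 187 and 115 in KATH. Cold tubules held 1734, 1398 and 1192 CPM in FastBKK, 716, 1062 and 1111 in SlowBKK and 536, 990.1 and 457 in KATH. KATH had the lowest tubule controls, its cold libraries overlapped those of SlowBKK, and SlowBKK, with the highest control level, had the smallest ratio (0.77).

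GF12581 (FBgn0016147, scaffold_13266) and GF15274 (FBgn0092299, scaffold_12916) were low in both organs. GF12581 had 28.6, 23.9 and 34.5 CPM in FastBKK, 17.4, 23.1 and 13.5 in SlowBKK and 19.7, 8.43 and 16.6 in KATH in control hindguts. After the cold it had 4.81, 10.6 and 6.58 CPM in FastBKK, 5.06, 6.08 and 7.77 in SlowBKK and 3.33, 3.21 and 7.29 in KATH. Its tubule controls were at 8.09, 15.2 and 13.8 CPM in FastBKK, 20.3, 18.3 and 18.8 in SlowBKK and 12.9, 13.8 and 15.2 in KATH. The cold tubules were at 21.4, 20.5 and 15.6 CPM in FastBKK, 25.04, 22.8 and 51.6 in SlowBKK and 30.3, 28.8 and 21.7 in KATH, and SlowBKK cold replicate 4 stood apart from its group. GF15274 read 23.1, 30.03 and 19.8 CPM in FastBKK, 27.4, 25.7 and 23.2 in SlowBKK and 13.4, 14.5 and 15.2 in KATH in control hindguts. The cold hindguts of GF15274 read 10.3, 8.88 and 9.11 CPM in FastBKK, 9.98, 10.8 and 12.1 in SlowBKK and 7.25, 10.1 and 8.09 in KATH, close together across the lines. Its tubule controls read 8.01, 8.63 and 6.03 CPM in FastBKK, 5.17, 5.97 and 4.76 in SlowBKK and 7.83, 3.04 and 3.40 in KATH. The cold tubules read 16.98, 12.7 and 9.45 CPM in FastBKK, 8.68, 8.51 and 8.82 in SlowBKK and 7.32, 7.78 and 7.48 in KATH. In KATH the groups overlapped, because control replicate 1 was above the cold libraries.

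GF13329 (FBgn0090361, scaffold_13266) and GF23979 (FBgn0100973, scaffold_12943) complete the first 10. GF13329 was abundant in the control hindgut, at 1597, 1151 and 1218 CPM in FastBKK, 1463, 1515 and 1291 in SlowBKK and 2026, 1346 and 1284 in KATH. After the cold it stood at 583, 568 and 511 CPM in FastBKK, 481, 539 and 461 in SlowBKK and 525, 542 and 559.7 in KATH. The cold values lay within a narrow band in all lines. Tubule controls of GF13329 stood at 95.1, 94.7 and 112 CPM in FastBKK, 84.9, 66.2 and 74.5 in SlowBKK and 115, 87.9 and 95.97 in KATH. The cold libraries stood at 218, 117 and 139 CPM in FastBKK, 139, 165 and 139.6 in SlowBKK and 138, 153 and 166 in KATH, and FastBKK cold replicate 1 was the highest. GF23979 held 265, 167 and 217 CPM in FastBKK, 189.5, 181 and 233 in SlowBKK and 252, 195 and 245 in KATH in control hindguts. The cold brought 115, 152 and 122 CPM in FastBKK, 107, 124 and 132 in SlowBKK and 176, 119 and 142 in KATH. FastBKK control replicate 3, the library with body transcripts, was the lowest control. In the tubule GF23979 went from 131, 145 and 130.1 CPM in FastBKK, 164, 135 and 154 in SlowBKK and 103, 126 and 169.6 in KATH. It reached 249, 239.9 and 238 CPM in FastBKK, 210.1, 261 and 206 in SlowBKK and 221, 232 and 274 in KATH, without overlap in any line.

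The other 30 members had scores from 0.316 to 0.561. At the edge of the set, GF18645, GF20639 and GF12751 had scores of 0.318, 0.317 and 0.316, and GF18235, GF13679 and GF21008, just outside, 0.314, 0.306 and 0.305. The scores run on without a gap past the edge. Among these 30 the largest tubule ratios belonged to GF10804 (2.89, 1.99 and 3.04 in FastBKK, SlowBKK and KATH), whose hindgut ratios were -0.36, -0.64 and -0.60. GF13887 had the reverse balance, with hindgut ratios of -1.79, -1.79 and -2.21 and tubule ratios of 0.44, 0.57 and 0.35. GF14401 had hindgut values of -1.39, -1.91 and -1.81, against tubule values of 2.04, 0.40 and 1.11.

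Some ratios rested on single libraries. In the tubule of FastBKK, GF11376 went from 20.2, 13.5 and 11.9 CPM to 43.9, 11.5 and 7.95 CPM, so that only replicate 1 was above the controls. GF23582 overlapped between cold and control tubules in SlowBKK (356, 420.0 and 599 against 796, 676 and 592 CPM) and in KATH (365, 260.5 and 309.7 against 295, 401 and 488 CPM). For GF10461 the KATH tubule ratio was 0.46, against 1.71 and 1.83 in FastBKK and SlowBKK. Its KATH tubules went from 10.6, 5.33 and 10.1 CPM to 8.75, 7.52 and 19.99 CPM, so that only cold replicate 4 was above all controls. KATH cold replicate 4 and FastBKK cold replicate 1 were the tubule libraries with the most hindgut carry-over. At the measured share, this carry-over came to 1.13% of GF10461 in KATH cold replicate 4. Leaving out each of the 36 organ libraries in turn kept 35 to 40 of the members (median 38), and 19 members were chosen every time. GF12751, the last of the set, was chosen in 22 of the 36 cases. Without the 3 libraries with the most carry-over, 32 of the 40 were chosen. Those absent were GF11376, GF10461, GF15273, GF23582, GF16062, GF23365, GF27666 and GF12751.

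At the hindgut share measured in each cold tubule library, the highest contribution to a member had a median of 1.21% of that member's level. It exceeded 10% for 3 members, GF10511, GF24373 and GF10854, each in KATH cold replicate 4. For GF10854, with 14.7, 14.7 and 11.5 CPM in the cold tubules of KATH, it came to 16.6%. Control tubules were also affected, with up to 28.3% for GF10854 in FastBKK control replicate 2, 22.3% for GF19797 in KATH control replicate 5 and 20.4% for GF10511 in KATH control replicate 1. Body transcripts in FastBKK control hindgut replicate 3 contributed a median of 3.63% of the members' level there, with 24.5% for GF14593, and in FastBKK cold tubule replicate 3 they made up 10.4% of GF10854. The part of such carry-over in the ratios was not tested beyond leaving out those libraries.

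Summed over the 40 members, the level differed between organs and temperatures, as the choice requires. In the hindgut it ran from 11528 to 14300.0 CPM in the 9 controls (median 13305) and from 4930.0 to 7118 CPM in the 9 cold libraries (median 6044). In the tubule it ran from 4192 to 4945 CPM in the controls (median 4399) and from 6979 to 8714 CPM in the cold (median 8096). The 2 organs thus stood far apart in the controls and closer in the cold, with the tubule median above. The body, whose libraries did not enter the choice, held 6489 to 7215 CPM in the controls (median 6839) and 4720.4 to 5559 CPM in the cold (median 5072), so its 2 groups did not overlap. Of the net difference between the mean sums, 89.9% came from 4 members, GF14401, GF13329, GF21605 and GF10854, and 47.98% from GF14401 alone.

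Organ by organ, 32 members were higher in the hindgut than in the tubule in all 3 lines at 22 °C, 4 were higher in the tubule and 4 differed in order between lines. After the cold 12 were higher in the hindgut in all lines, 19 in the tubule and 9 had no common order. Of the 32, 11 ended higher in the tubule in every line, 12 stayed higher in the hindgut and 9 lost a common order. The median log2 difference between hindgut and tubule went from 0.97 (1.96-fold) to -0.18. The largest difference was that of GF10511, which was 68.1-fold higher in the hindgut at 22 °C and 7.22-fold higher in the cold. GF19797 went from 54.7-fold to 2.33-fold, GF10854 from 30.2-fold to 6.94-fold and GF14401 from 21.0-fold to 2.84-fold. GF10804 went from 9.46-fold to 1.05-fold, as the mean of lines that differed in order after the cold (log2 differences of 0.29, 0.57 and -0.66 in FastBKK, SlowBKK and KATH). In contrast GF23582, higher in the tubule at the start, widened its lead from 3.98-fold to 14.7-fold, and GF12751 from 2.62-fold to 7.25-fold. The direction of this shift is set by the choice of the members.

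**Figure D3:**
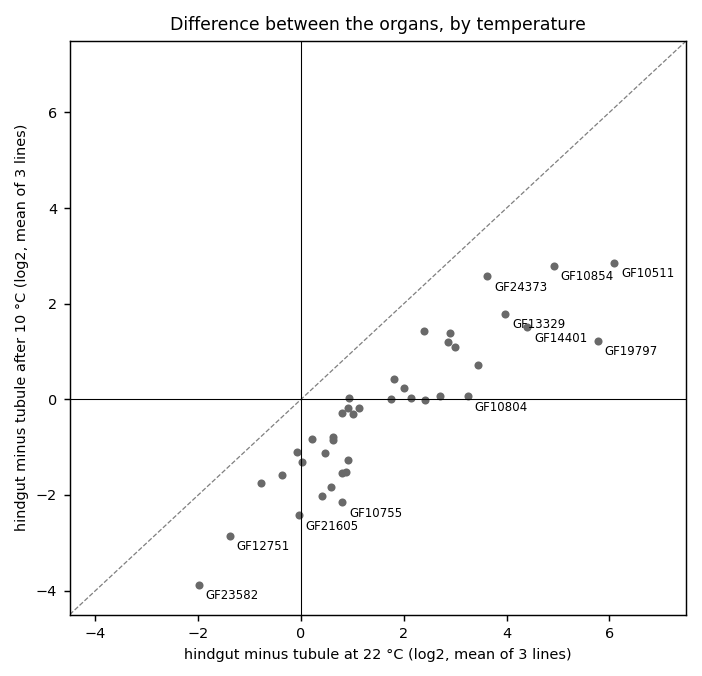
Log2 difference in mean CPM between hindgut and tubule for each of the 40 members, at 22 °C (horizontal) and after 10 °C (vertical), as the mean of 3 lines. Points above 0 on an axis are higher in the hindgut, and all points lie below the dashed line of equal difference, as the choice requires.

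The difference between the organs averaged over both temperatures and all lines is another contrast than the one the choice used, though from the same 36 libraries. These libraries chose the members, so the calls are not independent of the choice and their p-values are given as a description. By edgeR's quasi-likelihood test with Benjamini-Hochberg adjustment, 20 members were higher in the hindgut and 17 higher in the tubule. Of the 11942 genes tested, 44.0% were higher in the hindgut and 39.5% in the tubule (83.5% in either direction). Members had to pass the level minimum in both organs and the tested genes did not, so the shares are not like for like. Whether members differ from other genes that passed the minimum was not tested. The largest was GF10511, with a log2 difference of 4.23 ± 0.079 (SE; adjusted p = 2.06e-26), and the smallest GF23582, with -3.21 ± 0.10 (adjusted p = 2.21e-21). GF16768, GF25249 and GF18388 were not called. The median over members was 0.17, beside 0.099 over all tested genes, with the same limit on the comparison.

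The body gave a response that the choice had not used. There the members fell in the cold more often than they rose. In FastBKK 25 members were called lower and 5 higher, in SlowBKK 20 lower and 2 higher, and in KATH 18 lower and 8 higher (edgeR's quasi-likelihood test over 13435 genes, adjusted p under 0.05). Of all tested genes, 25.2%, 24.0% and 28.9% were called lower in these lines and 25.2%, 23.4% and 29.7% higher; in either direction 50.3%, 47.4% and 58.7% were called. Among the 5879 genes that passed the same level minimum in the organs, 22.1%, 21.2% and 17.3% were lower and 34.1%, 31.8% and 40.9% higher. The median log2 fold change of the members was -0.42 in FastBKK, -0.29 in SlowBKK and -0.18 in KATH, while that of all tested genes was 0.000991, 0.00149 and 0.0000960.

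All 3 lines were called lower in the body for 13 members (background 13.8% of all tested genes, 10.7% of those that passed the level minimum) and higher for 2 (background 14.3% and 20.9%). Under the 23 alternatives run for the body, 11 to 16 members were lower in all lines and 1 or 2 higher. The body libraries hold many cell types, and what share of them the hindgut and tubules make up was not measured.

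**Figure D4:**
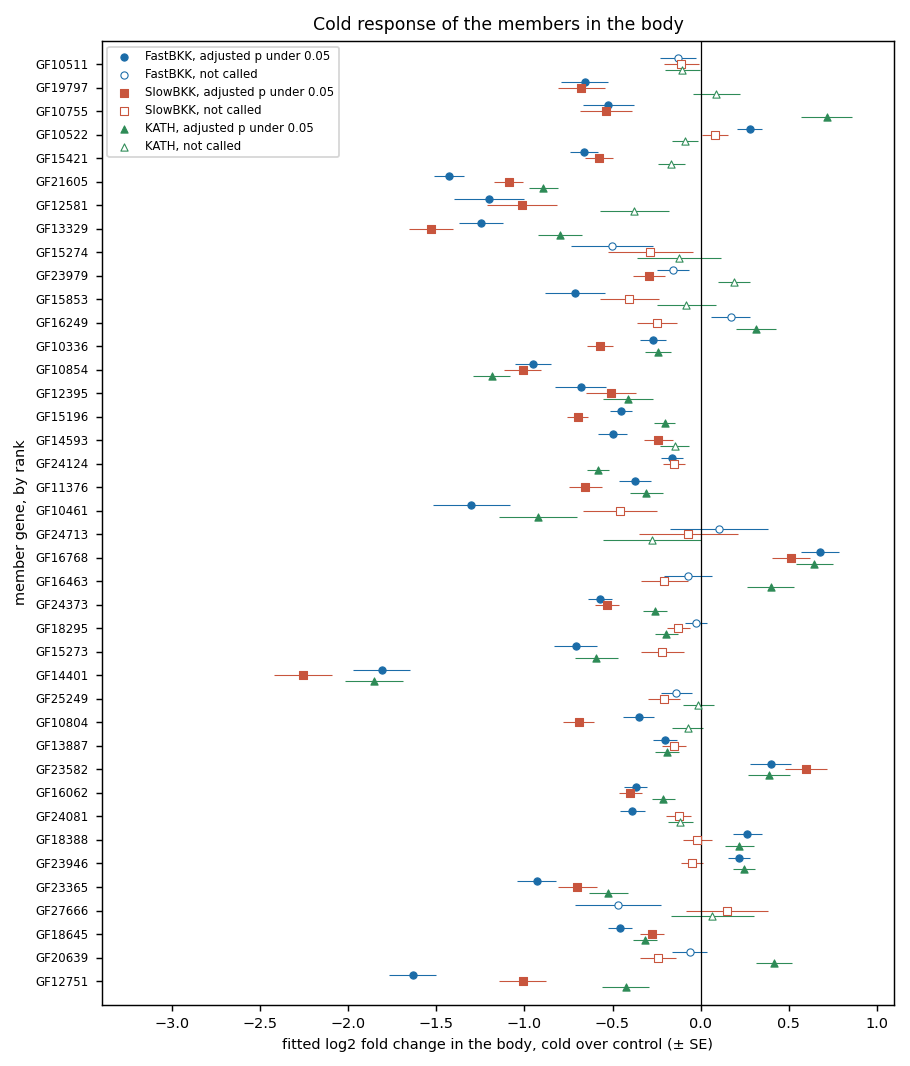
Fitted log2 fold change in the body, cold over control, for the 40 members in 3 lines (bars, ± SE from the fit; filled symbols, adjusted p under 0.05; open symbols, not called). Most filled symbols lie left of 0, with GF14401 the farthest, and GF16768 and GF23582 lie right of 0 in all lines.

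GF14401 (FBgn0091428, scaffold_12916) had the largest body response, as log2 fold change -1.81 ± 0.16 in FastBKK, -2.26 ± 0.17 in SlowBKK and -1.86 ± 0.16 in KATH (± SE; adjusted p = 1.08e-07, 1.14e-08 and 1.04e-07). Its body controls held 1091, 1304 and 1128 CPM in FastBKK, 1034, 1318 and 941 in SlowBKK and 951, 1241 and 1092 in KATH. The cold bodies held 350.3, 367 and 339.6 CPM in FastBKK, 215, 254 and 257 in SlowBKK and 372, 233 and 273 in KATH. The groups lay far apart in each line. In FastBKK the hindgut mean of GF14401 had gone from 1047 ± 274 CPM (SD, n = 3) to 399 ± 8.86 CPM, and the tubule mean from 45.5 ± 16.6 CPM to 189 ± 42.3 CPM. In the SlowBKK tubule it had gone from 38.2 ± 16.4 CPM to 50.5 ± 13.2 CPM, with overlapping libraries.

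GF13329 followed, at -1.24 ± 0.12 in FastBKK, -1.53 ± 0.13 in SlowBKK and -0.80 ± 0.12 in KATH (adjusted p = 3.36e-07, 3.77e-08 and 4.38e-05). Body controls of GF13329 stood at 582, 573 and 585 CPM in FastBKK, 499.5, 657 and 474 in SlowBKK and 452, 495 and 475 in KATH, and cold bodies at 279, 241 and 252 CPM in FastBKK, 202, 198 and 193 in SlowBKK and 317, 232 and 244 in KATH. GF21605 fell by 1.43 ± 0.085 in FastBKK, 1.09 ± 0.084 in SlowBKK and 0.89 ± 0.084 in KATH on the log2 scale. Its body controls were 501, 500.5 and 433 CPM in FastBKK, 325, 355 and 360.3 in SlowBKK and 391, 406 and 376 in KATH, and its cold bodies 196, 198 and 166 CPM in FastBKK, 179, 177 and 157 in SlowBKK and 207, 198 and 208 in KATH. For both genes every cold body library was below every control of its line, the direction seen in the hindgut. GF10854 (FBgn0087894, scaffold_13337) changed by -0.95 ± 0.10 in FastBKK, -1.01 ± 0.10 in SlowBKK and -1.19 ± 0.11 in KATH. Its controls were lowest in FastBKK and highest in KATH, at 314, 363 and 337 CPM in FastBKK, 408, 411 and 383 in SlowBKK and 507, 537 and 458 in KATH, while the cold libraries held 196, 196 and 159.7 CPM in FastBKK, 221, 198 and 208 in SlowBKK and 238, 187 and 216 in KATH.

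GF12751 (FBgn0089785, scaffold_13266) and GF23365 (FBgn0100359, scaffold_12911) came next. GF12751 had -1.63 ± 0.14 in FastBKK, -1.01 ± 0.13 in SlowBKK and -0.43 ± 0.13 in KATH, and GF23365 -0.93 ± 0.11 in FastBKK, -0.70 ± 0.11 in SlowBKK and -0.52 ± 0.11 in KATH. The body controls of GF23365 held 35.8, 39.9 and 39.4 CPM in FastBKK, 35.5, 41.8 and 32.4 in SlowBKK and 34.4, 33.7 and 30.1 in KATH and the cold bodies 19.03, 21.9 and 22.7 CPM in FastBKK, 22.2, 21.95 and 26.9 in SlowBKK and 20.3, 23.6 and 22.6 in KATH. Without KATH control body replicate 1, the KATH response of GF12751 was no longer called (adjusted p = 0.0572). GF12395, GF24373, GF15196, GF11376, GF10336, GF18645 and GF16062 make up the remainder of the 13, with mean log2 fold changes over the lines of -0.53, -0.45, -0.45, -0.44, -0.36, -0.35 and -0.33. Of these, GF12395 lost its KATH call without KATH cold body replicate 2 (adjusted p = 0.0966) or KATH control body replicate 1 (0.0821), and GF11376 was not called in every line without KATH control body replicate 2.

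The members that rose in all 3 lines were GF16768 and GF23582. GF16768 (FBgn0093789, scaffold_13340) stood at 162, 196 and 201 CPM in FastBKK, 202, 194 and 197 in SlowBKK and 230.0, 234 and 234 in KATH in control bodies. It stood at 283, 321 and 338 CPM in FastBKK, 346, 275 and 268 in SlowBKK and 392, 349 and 318 in KATH in the cold, without overlap in any line. On the log2 scale it changed by 0.68 ± 0.11 in FastBKK, 0.51 ± 0.11 in SlowBKK and 0.65 ± 0.11 in KATH (adjusted p = 5.09e-05, 0.000750 and 8.16e-05), the direction of the tubule. GF23582 (FBgn0100576, scaffold_13337) went from 30.9, 32.1 and 36.8 CPM in FastBKK, 27.8, 29.6 and 28.8 in SlowBKK and 24.8, 25.9 and 23.4 in KATH in control bodies. The cold bodies had 53.96, 42.02 and 42.1 CPM in FastBKK, 47.2, 44.1 and 45.9 in SlowBKK and 26.8, 37.9 and 29.6 in KATH, and its log2 fold change was 0.40 ± 0.12 in FastBKK, 0.60 ± 0.12 in SlowBKK and 0.39 ± 0.12 in KATH. Its FastBKK call was lost without FastBKK cold body replicate 1 (adjusted p = 0.0738), and its KATH call without KATH cold body replicate 3 (0.0865) or KATH control body replicate 4 (0.0801).

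The gene with the highest score in the organs, GF10511, was not called in the body of any line. Its body controls held 243, 207 and 191 CPM in FastBKK, 202, 213 and 198 in SlowBKK and 210.4, 230.5 and 260.1 in KATH. Its cold bodies held 213, 202 and 202 CPM in FastBKK, 222, 189 and 187 in SlowBKK and 237, 193 and 201 in KATH, and its log2 fold change was -0.13 ± 0.10 in FastBKK, -0.11 ± 0.10 in SlowBKK and -0.10 ± 0.10 in KATH (adjusted p = 0.302, 0.396 and 0.383). GF15274, GF24713, GF25249 and GF27666 were likewise called in no line. Of the other members of the first 10, GF15421 was called lower in FastBKK and SlowBKK, with -0.66 ± 0.079 in FastBKK, -0.58 ± 0.079 in SlowBKK and -0.17 ± 0.079 in KATH, and so was GF12581, with -1.20 ± 0.20 in FastBKK, -1.01 ± 0.20 in SlowBKK and -0.38 ± 0.20 in KATH. GF23979 was called lower in SlowBKK (-0.29 ± 0.091), a call lost without SlowBKK control body replicate 2 (adjusted p = 0.0665) or replicate 4 (0.0579).

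An interaction term tested whether lines differed in their body response. Between KATH and FastBKK it differed for 9 members, higher in KATH for 7 and lower for 2, against 8.86% and 5.26% of all tested genes. Between FastBKK and SlowBKK no member was called by edgeR's test (3.22% of all genes were, 1.41% higher and 1.81% lower), while 13 had an unadjusted p under 0.05. DESeq2 called 2 there, GF23946 at a log2 difference of 0.27 (adjusted p = 0.0470) and GF12751 at -0.62 (adjusted p = 0.0271). These 2 were chosen after their values were seen. Without FastBKK cold body replicate 4 edgeR called 2 members, and without FastBKK control body replicate 1 or KATH control body replicate 4 it called 1.

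GF10755 showed the largest difference between KATH and FastBKK, 1.24 ± 0.20 log2 units (± SE; adjusted p = 0.000938). Its body controls read 64.4, 71.6 and 61.7 CPM in FastBKK, 46.00, 44.8 and 42.1 in SlowBKK and 38.8, 36.5 and 34.3 in KATH. Its cold bodies read 58.98, 48.1 and 37.6 CPM in FastBKK, 30.8, 27.6 and 37.9 in SlowBKK and 65.7, 51.3 and 57.5 in KATH. It was thus called lower in FastBKK (-0.52 ± 0.14) and SlowBKK (-0.54 ± 0.15) and higher in KATH (0.71 ± 0.15), the only member called with both signs. GF12751 differed by 1.21 ± 0.19 (adjusted p = 0.000568). In FastBKK it went from 62.5, 64.9 and 81.1 to 26.99, 24.3 and 19.3 CPM, and in KATH from 50.5, 46.2 and 41.2 to 33.1, 31.1 and 35.7 CPM, so it fell in both lines and further in FastBKK.

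GF19797 differed by 0.75 ± 0.19 (adjusted p = 0.0146). The body libraries of GF19797 held 76.6, 88.4 and 73.5 CPM in FastBKK controls and 40.3, 60.6 and 58.4 CPM in the cold, whereas KATH had 69.1, 54.00 and 65.01 and 67.7, 67.8 and 58.3 CPM, groups that overlapped. In the hindgut this gene also had its smallest fall in KATH, a value that set its score and was not tested. GF21605 (0.54 ± 0.12), GF15421 (0.50 ± 0.11), GF20639 (0.48 ± 0.14) and GF24373 (0.31 ± 0.10) were also higher in KATH by this test, and GF24124 (-0.42 ± 0.087) and GF10522 (-0.37 ± 0.10) lower. GF24124 went from 74.3, 76.9 and 72.6 to 50.6, 46.5 and 47.9 CPM in KATH and from 60.6, 62.6 and 64.2 to 56.2, 57.6 and 62.5 CPM in FastBKK. The calls of GF20639 and GF24373 each held in 7 of 18 cases with a library left out and that of GF10522 in 13, while those of the other 6 held in all 18.

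**Figure D5:**
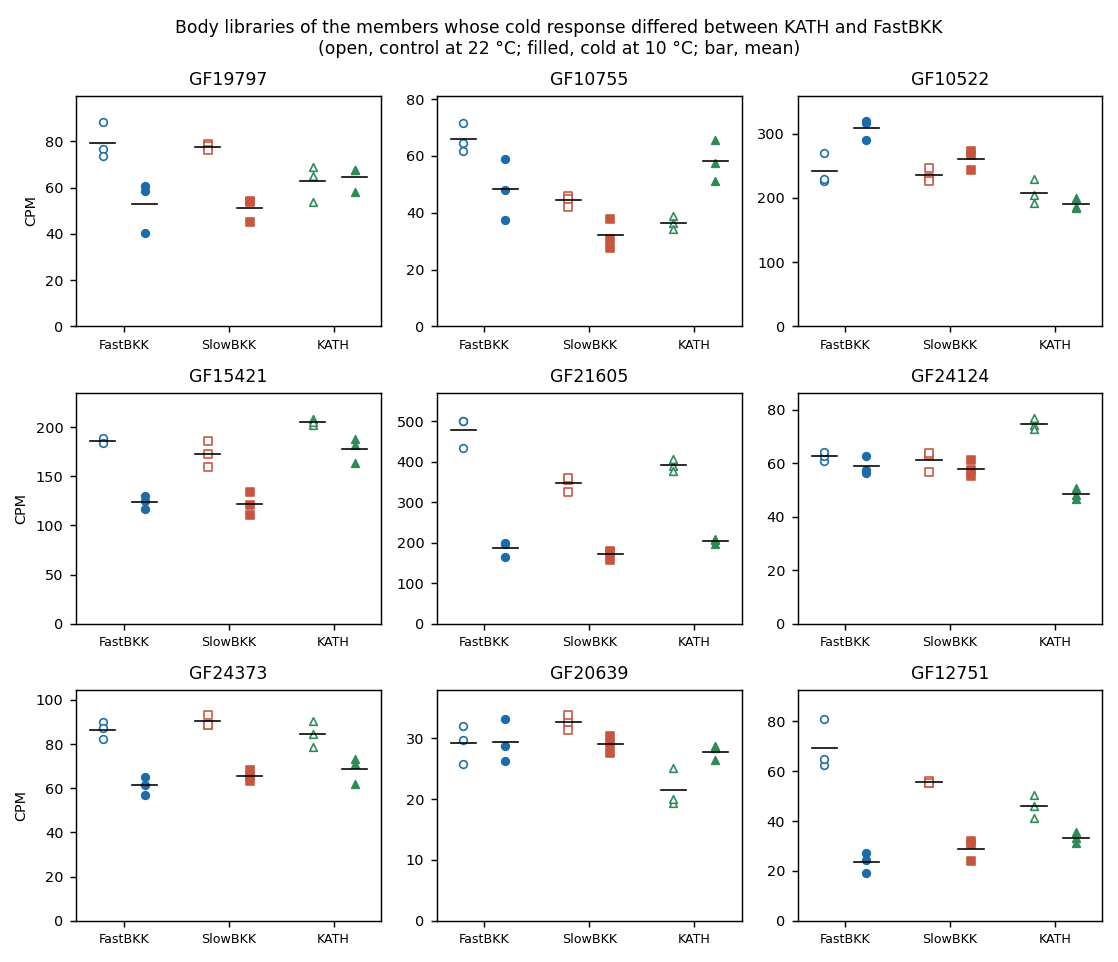
CPM in each body library for the 9 members whose cold response differed between KATH and FastBKK (open symbols, 22 °C controls; filled, 10 °C; bars, means of 3). GF10755 rises in KATH and falls in the Bangkok lines, and GF12751 falls most in FastBKK.

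At 22 °C some members already differed in level between lines in the body. For FastBKK minus SlowBKK their shares, 10% higher and 7.5% lower, were close to those of all tested genes. KATH was lower than FastBKK for 16 members and higher for 4 (background 19.0% and 14.5%), and FastBKK was higher than SlowBKK for 4 and lower for 3 (background 7.26% and 6.93%). These comparisons share control libraries with the cold responses. The FastBKK minus SlowBKK count of 7 fell to 3 without FastBKK control body replicate 4 and to 4 without SlowBKK control body replicate 3. GF10755 had the lowest value for KATH minus FastBKK, -0.91 ± 0.15 (adjusted p = 0.000202). The largest value among called members was that of GF10854, 0.51 ± 0.10 (adjusted p = 0.00136). For FastBKK minus SlowBKK the extremes among called members were GF15274 at 0.93 ± 0.24 (adjusted p = 0.0158) and GF18388 at -0.29 ± 0.082 (adjusted p = 0.0250). The control bodies of GF15274 held 15.2, 27.9 and 27.2 CPM in FastBKK, 13.1, 10.04 and 14.6 in SlowBKK and 16.9, 10.4 and 15.7 in KATH. Its call was lost without FastBKK control body replicate 3 (adjusted p = 0.0639) or replicate 4 (0.0641), or without SlowBKK control body replicate 3 (0.0666), and that of GF18388 without FastBKK control body replicate 4 (0.120) or SlowBKK control body replicates 3 (0.0860) and 4 (0.0617).

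GF25249 (FBgn0102241, scaffold_13337) was higher in the body of FastBKK than in that of the other lines. Control bodies of GF25249 read 49.98, 44.8 and 42.1 CPM in FastBKK, 26.3, 28.3 and 25.6 in SlowBKK and 27.8, 27.04 and 25.3 in KATH, and cold bodies 41.4, 39.1 and 50.3 CPM in FastBKK, 23.8, 24.9 and 24.1 in SlowBKK and 26.6, 24.8 and 25.8 in KATH. FastBKK was above SlowBKK by 0.80 ± 0.089 and KATH minus FastBKK was -0.83 ± 0.089 log2 units (adjusted p = 2.70e-05 and 4.39e-06). In the hindgut this gene had 58.8, 56.2 and 59.5 CPM in FastBKK, 47.5, 50.7 and 45.1 in SlowBKK and 48.8, 54.01 and 56.7 in KATH control hindguts. In control tubules it had 27.7, 29.6 and 30.6 CPM in FastBKK, 26.6, 23.3 and 25.6 in SlowBKK and 35.9, 35.6 and 38.3 in KATH, so KATH was the highest there. The difference between tissues was not tested.

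In the organs, line differences were tested on the mean of both temperatures. The libraries were those that chose the members, and their cold values entered both the scores and these means. The calls are thus not independent of the choice. For the hindgut, FastBKK minus SlowBKK gave 4 calls, with GF24713, GF23582 and GF25249 higher and GF23365 lower in FastBKK (background 6.95% higher and 7.60% lower). The member shares, 7.5% higher and 2.5% lower, were thus close to and below those of all tested genes. GF24713 (FBgn0101706, scaffold_13337) showed the largest difference, 1.22 ± 0.18 (adjusted p = 0.000601), and its control hindguts held 203, 179 and 225 CPM in FastBKK, 62.3, 101 and 89.7 in SlowBKK and 106, 143 and 139 in KATH. The cold hindguts of GF24713 held 103, 149 and 149 CPM in FastBKK, 55.5, 39.8 and 73.00 in SlowBKK and 101, 108 and 56.6 in KATH, so every FastBKK library was above every SlowBKK library at either temperature. KATH minus FastBKK gave 7 members higher and 6 lower in the hindgut (background 8.78% and 7.93%), from -0.83 ± 0.11 for GF11376 to 0.81 ± 0.12 for GF16768. When only the 22 °C groups were contrasted, within the same fit, GF11376 was not called, at -0.49 (adjusted p = 0.0509). The FastBKK minus SlowBKK count fell to 1 without SlowBKK cold hindgut replicate 2 or SlowBKK control hindgut replicate 1, to 2 without FastBKK cold hindgut replicate 4, SlowBKK cold hindgut replicate 4 or SlowBKK control hindgut replicate 2, and rose to 6 without FastBKK control hindgut replicate 3. The call of GF23365 was lost without SlowBKK cold hindgut replicate 2 (adjusted p = 0.0510) or SlowBKK control hindgut replicate 1 (0.0665). With only the 22 °C groups contrasted, GF23365 stood at -0.14 and was not called (adjusted p = 0.457).

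For the tubule, FastBKK was higher than SlowBKK for 7 members and lower for 6 (background 10.1% and 7.96%). GF14401 stood highest, at 1.09 ± 0.27, and GF11376 lowest, at -1.30 ± 0.34 (adjusted p = 0.0115 and 0.0177). When only the 22 °C groups were contrasted, within the same fit, neither was called, at 0.23 (adjusted p = 0.779) and -1.08 (adjusted p = 0.200). The score of GF14401 was its SlowBKK tubule ratio (0.40) and that of GF11376 its FastBKK tubule ratio (0.46). Both calls thus rest on values that chose the members, and their p-values are given as a description. The cold tubules of GF14401 held 231, 147 and 187 CPM in FastBKK, 65.7, 43.4 and 42.4 in SlowBKK and 181, 207 and 116 in KATH. Its control tubules held 57.1, 26.5 and 52.8 CPM in FastBKK, 45.9, 19.4 and 49.4 in SlowBKK and 65.1, 113 and 54.5 in KATH, so FastBKK and SlowBKK overlapped there and did not overlap in the cold. KATH was higher than FastBKK for 9 members and lower for 9 (background 11.0% and 12.2%), from -1.23 ± 0.20 for GF21605 to 0.62 ± 0.088 for GF16768. GF16768 was thus the highest KATH value in both organs, with hindgut controls of 169.9, 101 and 121 CPM in FastBKK, 160.1, 166 and 146 in SlowBKK and 225, 185 and 232 in KATH and tubule controls of 82.4, 60.3 and 65.8 CPM in FastBKK, 86.8, 85.1 and 81.4 in SlowBKK and 113, 98.5 and 122 in KATH. GF16249 was next to GF21605 at the low end, at -1.22 ± 0.17. Without SlowBKK cold tubule replicate 4 the FastBKK minus SlowBKK count was 8.

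Length and position did not enter the choice. The members' median length was 1982 bases (346 to 8692), beside 1949 over the 5879 genes that passed the level minimum. They lay on 7 scaffolds, with 13 on scaffold_13337, 8 on scaffold_13340, 7 on scaffold_12916, 6 on scaffold_13266, 4 on scaffold_12943 and 1 each on scaffold_12911 and scaffold_12984. Of the 5879 genes 19.2% were on scaffold_13337, 19.8% on scaffold_13340, 13.0% on scaffold_12916, 20.2% on scaffold_13266 and 3.56% on scaffold_12943. GF15273 and GF15274 carry consecutive symbols on scaffold_12916. Their hindgut ratios were -2.52, -1.82 and -1.34 and -1.32, -1.18 and -0.72 in FastBKK, SlowBKK and KATH. Whether they are similar enough in sequence to share reads was not checked.

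Per kilobase of gene length, the members' control hindgut level ran from 5.60 CPM per kb (GF12395) to 1154 (GF10511), with a median of 65.9 beside 17.3 over the 5879 genes. After the cold the median in the hindgut was 40.1, beside 21.6. In the tubule the median went from 18.2 to 41.8 CPM per kb, beside 18.1 and 21.9, and GF21605 held the highest value, 1019 in the controls and 2953 in the cold. The lowest tubule value belonged to GF10854, at 0.775 and 1.98 CPM per kb. In the body the median was 47.4 CPM per kb in the controls and 34.9 in the cold, beside 18.7 and 20.1. The choice asked for a fall in the hindgut, so the control values there are not independent of it. Its part in these levels was not tested.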

How the data were processed

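The authors deposited unnormalized read counts, whole numbers whose totals differ between libraries, with gene length as another value (other unit) in the deposited table. FastQC 0.11.9 is listed in the submitters' processing notes. The aligner, counter, genome build, annotation and strand setting are not given in the sources used here, so reads of overlapping or near-identical genes may have been split. Hindgut and tubule RNA was extracted with an RNeasy kit and body RNA with a MasterPure kit, with poly-A libraries, per the labels' protocols, so body and organs were not tested against each other.

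CPM values are counts divided by the column sum. Tests used edgeR 4.0.16 in R 4.3.3 with TMM scaling, filterByExpr, 1 coefficient per line and treatment within a tissue (or organ, for the 36 organ libraries), glmQLFit and glmQLFTest (two-sided). P-values were adjusted by Benjamini-Hochberg over all genes of the fit (13435 in the body, 11323 in the hindgut, 10132 in the tubule, 11942 in both organs). Calls needed an adjusted p under 0.05. Each SE is the size of the log2 fold change divided by the square root of the F statistic of its test. All 40 members passed the filter of every fit. DESeq2 1.42.0 was an alternative. The code was tested on simulated counts. Members, lists and tests were chosen with earlier results of these data known. Members named with full values were ranks 1 to 10, those called in all body lines (up to 10), those with a called interaction and the extremes of each contrast, while GF25249 was singled out after its values were seen. The gene lists by product name could not be used.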

Additional observations from a re-analysis of the deposited data

Results flagged for a closer look

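Of all tested genes, 14.1% differed in body cold response between KATH and FastBKK by the test of the difference itself. The share higher in KATH was 8.86% and the share lower 5.26%. Among the 40 members the response differed for 9 (17.5% higher, 5% lower). Given as KATH minus FastBKK on the log2 scale, these were GF10755 at 1.24, GF12751 at 1.21, GF19797 at 0.75, GF21605 at 0.54, GF15421 at 0.50, GF20639 at 0.48, GF24373 at 0.31, GF10522 at -0.37 and GF24124 at -0.42. Over the 23 alternatives run for this contrast, GF10755 kept its call in all, with values between 1.08 and 1.42, and GF12751 with values between 1.08 and 1.33. GF15421, GF21605 and GF24124 were also called under each of these. GF20639 and GF24373 were called in 10 of the 23, GF10522 in 17 and GF19797 in 22.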

How the results depend on the processing

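The set itself depended most on scaling: 18 of its 40 genes were chosen with TMM-scaled CPM, against 37 with a pseudocount of 2 CPM, 28 and 33 with level minimums of 1 and 10 CPM, and 35 to 40 with a library left out. Leaving out a library gave 27 to 31, 20 to 25 and 20 to 26 called members for the body cold response of FastBKK, SlowBKK and KATH. The range was 3 to 7 for FastBKK minus SlowBKK and 16 to 22 for KATH minus FastBKK in the body at 22 °C. It was 0 to 2 and 6 to 12 for the interactions FastBKK minus SlowBKK and KATH minus FastBKK, 1 to 6 and 11 to 14 for the same pairs in the hindgut, 8 to 13 and 14 to 19 in the tubule, and 37 to 38 for hindgut minus tubule. DESeq2 gave 2 calls for the FastBKK minus SlowBKK interaction and 7 for that pair in the hindgut. Contrasts of the 22 °C groups alone were taken from the fit of all libraries of the organ. They gave 1 call in the hindgut for FastBKK minus SlowBKK and 6 for KATH minus FastBKK, and 3 and 10 in the tubule. The cause of these shifts was not tested. Contrasts of the 22 °C groups, and fits with a library left out, rest on fewer libraries. Same-numbered libraries did not deviate together throughout (correlations of deviations from group means between -0.23 and 0.35; over 0.1 in 2 of 6 pairs within the body, 2 of 7 within the hindgut, 1 of 5 within the tubule and 8 of 16 between hindgut and tubule, among them 5 of 6 KATH pairs). Since not every pair exceeded 0.1 in any of these, the numbers were not taken to pair samples. With the replicate block the KATH minus FastBKK interaction gave 5 calls in place of 9, and the tubule FastBKK minus SlowBKK contrast 8 in place of 13. The tubule KATH minus FastBKK contrast gave 5 higher and 7 lower in place of 9 and 9, and the hindgut FastBKK minus SlowBKK contrast 3 higher and 0 lower in place of 3 and 1. Hindgut minus tubule gave 20 higher and 17 lower with and without it. The block was a term for the replicate number, shared by all lines and treatments of a fit and, where both were fitted, by the organs. It did not pair the hindgut and tubule of the same line, so it cannot show what such pairing would change. Among the results for named members, calls lost with the block were GF19797, GF10522, GF20639 and GF24373 in that interaction (adjusted p = 0.0557, 0.0872, 0.121 and 0.123), GF14401 in the tubule (0.0515) and GF23365 in the hindgut (0.193), both for FastBKK minus SlowBKK. Values whose sign changed were small and not called: GF20639 in the FastBKK body was 0.022 without FastBKK control body replicate 3, GF15274 in the KATH body 0.029 without KATH control body replicate 1, and GF19797 in the KATH body -0.000666 without KATH control body replicate 2. With each library left out in turn, the range was -0.16 to 0.022, -0.30 to 0.029 and -0.000666 to 0.18 for these 3. Over the 83 results for named members the alternatives gave 1965 values, of which 61 lost a call, 23 gained 1 and 3 changed sign. The hindgut and tubule were noisier than the body (biological coefficients of variation of 28.6%, 33.3% and 11.1%), which limits what the line comparisons in the organs can show.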
